A study of Homo sapiens with 24 samples.

Results

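The clustered protocadherin genes are the 53 protein-coding genes on chromosome 5 whose symbols begin with PCDHA, PCDHB or PCDHG, of 20098 protein-coding genes on chromosomes 1 to 22 and X in the GENCODE annotation of hg19. The rule used their names and positions and no peak value. They comprise 15 alpha, 16 beta and 22 gamma genes, all on the plus strand, from chr5:140165721-140892544. S100A8-Flag and S100A9-Flag ChIP peaks were read at their transcription start sites (TSS) and across the whole cluster with 50 kb on each side. Peak lists came from MCF-10A cells, a nontransformed human breast epithelial line, carrying ER-Src, which is the v-Src oncoprotein fused to the ligand-binding domain of the estrogen receptor. The cells stably expressed S100A8 or S100A9 with a C-terminal Flag tag from a retroviral vector under drug selection, beside their own S100A8 and S100A9. Each line was treated with 1 μM 4-hydroxytamoxifen (TAM) for 24 hours to induce transformation, or with ethanol (EtOH) as vehicle. S100A8-Flag in EtOH had 2 libraries, and each of the other 3 combinations of protein and treatment had 3.

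Clustered protocadherins are cell-surface adhesion proteins of the cadherin superfamily, best known in neurons, where the combination expressed by a cell gives it an identity used in self-recognition. In the alpha and gamma groups, each variable first exon has its own promoter and is spliced to constant exons shared by the group, whereas beta genes encode their protein in a single exon. A cell chooses among the variable promoters through CTCF and cohesin, which loop a promoter to distant enhancers, and an enhancer downstream of the alpha constant exons is the best known of these. The C-type genes PCDHAC1, PCDHAC2, PCDHGC3, PCDHGC4 and PCDHGC5 are set apart from the others because neurons tend to use them constitutively. S100A8 and S100A9 are calcium-binding proteins secreted as cytokines, and the ChIP addressed where their nuclear forms associate with chromatin.

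A promoter was called in a library when a peak with q ≤ 1e-07 had its summit within 1500 bp of the TSS. Over the 11 libraries, 11 of the 53 protocadherin promoters were called in at least 1 library and 42 in none. The same rule called 58.2% of all protein-coding promoters. The 11 called genes were PCDHA12, PCDHAC1 and PCDHAC2 of the alpha group, PCDHB2, PCDHB3 and PCDHB14 of the beta group, and PCDHGA9, PCDHGA10, PCDHGB7, PCDHGA12 and PCDHGC3 of the gamma group. PCDHAC1 was the single member called in all 11 libraries, as were 0.488% of all promoters. PCDHGC3 was called in 6 libraries, PCDHGB7 in 5, PCDHGA10 in 3, and PCDHA12 and PCDHAC2 in 2 each. The remaining 5 called genes had 1 library each, and in every case it was a TAM library.

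**Figure D1:**
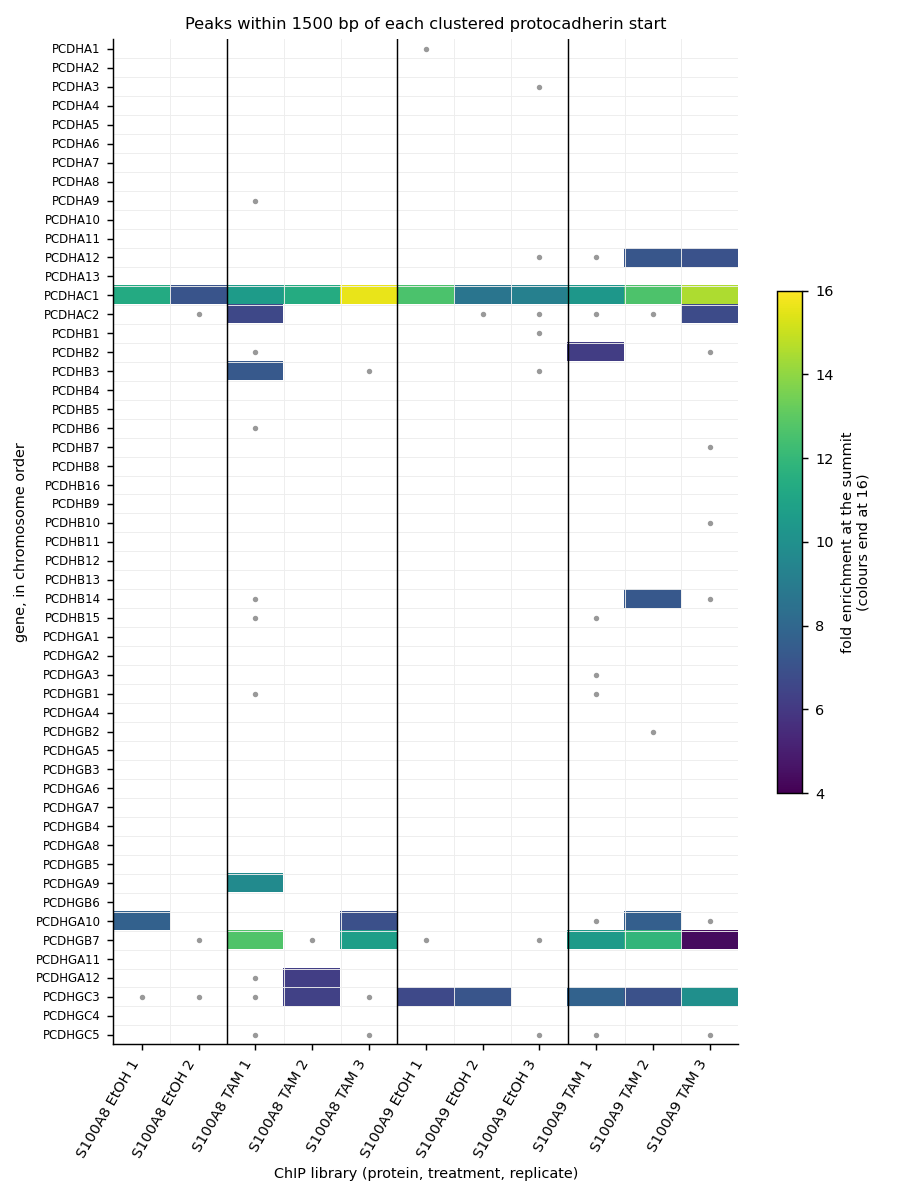
Fold enrichment of the strongest peak within 1500 bp of the TSS of each of the 53 genes (rows, in chromosome order) in each of the 11 libraries (columns). Coloured cells are peaks with q ≤ 1e-07, grey dots are weaker deposited peaks, and empty cells have none. The PCDHAC1 row is filled in all 11 libraries, and the PCDHGB7 row is filled in 5 TAM libraries.

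Sequences on the plus strand of hg19 are shown for 6 sites called in at least 2 replicates of a condition, taking sites at protocadherin promoters first and then those found in the most libraries. A further 2 sites, between the alpha and beta genes, were chosen after their values were seen. Each runs 75 bases to either side of the strongest summit, the one at the highest percentile of fold enrichment in its library. The PCDHAC1 sequence is limited to 30 bases because that summit is in the 5′ untranslated region (UTR), and the PCDHGB7 sequence ends where its UTR begins. Those 30 bases surround the PCDHAC1 summit of S100A8-Flag TAM replicate 3, and the PCDHAC1 summits of the other libraries lie outside them. Capitals mark matches to the CTCF, ETS or KLF/SP1 motif, and a sequence with none has no match to these or to the AP-1 motif in the bases shown.
PCDHAC1, chr5:140306169-140306198: cgcccgggcgggcggcctcgtctctgcacc
PCDHGB7, chr5:140797109-140797211: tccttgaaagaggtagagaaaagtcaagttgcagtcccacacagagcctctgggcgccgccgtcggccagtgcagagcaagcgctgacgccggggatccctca
PCDHGC3, chr5:140855306-140855456: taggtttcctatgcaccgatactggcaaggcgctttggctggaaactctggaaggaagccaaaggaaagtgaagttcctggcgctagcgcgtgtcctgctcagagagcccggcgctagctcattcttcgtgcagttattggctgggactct
PCDHA12, chr5:140255456-140255606: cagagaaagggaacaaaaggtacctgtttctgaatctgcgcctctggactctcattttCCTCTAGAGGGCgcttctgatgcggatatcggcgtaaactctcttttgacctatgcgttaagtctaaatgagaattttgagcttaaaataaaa
DIAPH1 intron, chr5:140937271-140937421: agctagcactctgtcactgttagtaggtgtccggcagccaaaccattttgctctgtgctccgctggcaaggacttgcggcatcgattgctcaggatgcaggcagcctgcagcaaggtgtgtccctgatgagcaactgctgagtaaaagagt
DIAPH1 intron, chr5:140904439-140904589: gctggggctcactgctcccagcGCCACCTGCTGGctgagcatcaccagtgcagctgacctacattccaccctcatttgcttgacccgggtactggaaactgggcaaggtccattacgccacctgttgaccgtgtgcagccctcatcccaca
first site between the alpha and beta genes, chr5:140419824-140419974: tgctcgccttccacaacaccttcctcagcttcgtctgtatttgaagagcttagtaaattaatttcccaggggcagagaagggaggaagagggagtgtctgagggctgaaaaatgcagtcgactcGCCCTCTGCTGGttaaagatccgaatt
second site between the alpha and beta genes, chr5:140420882-140421032: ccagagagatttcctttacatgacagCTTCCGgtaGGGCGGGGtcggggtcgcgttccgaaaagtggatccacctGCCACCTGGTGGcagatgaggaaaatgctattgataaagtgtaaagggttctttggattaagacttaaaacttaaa
The capitals are a CTCF match in the PCDHA12 line, the second DIAPH1 line and the first line between the alpha and beta genes. The last line holds, in order, an ETS, a KLF/SP1 and a CTCF match.

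PCDHAC1, the first of the C-type genes, lies at chr5:140305884-140391932. Its peak had a fold enrichment over input of 11.3 and 7.14 in the S100A8-Flag EtOH libraries and of 10.6, 11.4 and 15.6 in the S100A8-Flag TAM libraries. In S100A9-Flag the values were 12.6, 8.67 and 9.25 in EtOH and 10.4, 12.7 and 14.5 in TAM. The EtOH and TAM values overlapped for both proteins. The peak stood at a mean percentile of 80.0 of fold enrichment within its own library, and the lowest was 9.92, in S100A8-Flag EtOH replicate 2. The summit of its strongest peak in each library was 300 to 675 bp downstream of the TSS, with a median of 368 bp. In 10 libraries this placed it in the 5′ UTR of the variable exon, and in S100A9-Flag EtOH replicate 2 it was in the coding part, which begins 594 bp from the TSS. When the window reached only 250 bp downstream, PCDHAC1 was called in 1 library. With q ≤ 1e-10 it was called in 9 libraries, all 6 in TAM and 3 of 5 in EtOH.

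PCDHGB7, an alternately chosen gene of the gamma group at chr5:140797212-140892542, was called in 5 of 6 TAM libraries and in 0 of 5 EtOH libraries. In S100A8-Flag TAM its fold enrichment was 12.7 in replicate 1 and 10.7 in replicate 3, and replicate 2 had a peak of 4.68 that did not reach the q threshold. In S100A9-Flag TAM the values were 10.6, 11.9 and 4.33, the last at percentile 0.408 of its library. Below the threshold, EtOH peaks of 4.03, 5.54 and 4.67 were listed in S100A8-Flag replicate 2 and S100A9-Flag replicates 1 and 3. The called summits lay 9 to 53 bp upstream of the TSS, written as -9 to -53 bp. A two-sided exact permutation test, with library labels permuted inside each protein, gave p = 0.03 for the call between treatments (0.06 without any 1 of the 6 S100A9-Flag libraries), and it did not pass after Benjamini-Hochberg adjustment over 11690 genes (adjusted p = 0.213, limited by a smallest possible p of 0.01).

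The p for PCDHGB7 came from a test of each of the 11690 promoters called in at least 1 library. No promoter passed the adjusted threshold of 0.05 in that exact permutation test, 0 of 11690, and 2192 had an unadjusted p under 0.05. Of the 11 protocadherins tested, 1, PCDHGB7, was among these, where the share over all genes was 18.8%. Between the proteins, 0 of 11690 passed, 7 (0.0599%) had an unadjusted p under 0.05, and 0 of the 11 protocadherins was among them. PCDHGB7 was called in no library when each list was reduced to its 1853 top peaks.

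PCDHGC3, the second C-type gene with repeated calls, lies at chr5:140855514-140892544. It was called in 3 of 3 S100A9-Flag TAM libraries, with fold enrichments of 7.76, 6.97 and 9.99, and in S100A8-Flag TAM replicate 2 at 6.31. In EtOH it was called in S100A9-Flag replicates 1 and 2, at 6.66 and 7.18, and in neither S100A8-Flag library. Those EtOH summits were at different places, -45 bp and 536 bp from the TSS, so that they were no single site. In TAM, the summits of the strongest peak in each library ranged from -133 to 11 bp. S100A8-Flag TAM replicate 2 also had a second, weaker called peak at 614 bp, with a fold enrichment of 6.11. With q ≤ 1e-10, PCDHGC3 was called in 1 library.

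Peaks of PCDHGC3 had a mean percentile of 26.8 of fold enrichment, although the one in S100A9-Flag TAM replicate 3 stood at 80.7. PCDHGA10, PCDHA12 and PCDHAC2, the remaining genes with repeated calls, also had mean percentiles below the middle of their libraries. PCDHGA10 was called at 7.72 in S100A8-Flag EtOH replicate 1, 6.95 in S100A8-Flag TAM replicate 3 and 7.63 in S100A9-Flag TAM replicate 2, at -12 to 6 bp. PCDHA12 was called at 7.23 and 7.04 in S100A9-Flag TAM replicates 2 and 3. Those summits were 615 and 644 bp downstream, in the coding part of the variable exon and beside the start of the antisense lncRNA ENSG00000278915. PCDHAC2, a C-type gene, was called at 6.60 in S100A8-Flag TAM replicate 1 and 6.75 in S100A9-Flag TAM replicate 3, 117 and 172 bp downstream. The mean percentiles of these peaks were 28.3 for PCDHGA10, 28.4 for PCDHA12 and 23.3 for PCDHAC2. With q ≤ 1e-10 none of the 3 genes was called in any library.

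Single calls were made for PCDHGA9 at a fold enrichment of 9.75 and PCDHB3 at 7.34, both in S100A8-Flag TAM replicate 1. PCDHGA12 was called at 6.24 in S100A8-Flag TAM replicate 2, PCDHB2 at 6.16 in S100A9-Flag TAM replicate 1 and PCDHB14 at 7.30 in S100A9-Flag TAM replicate 2. Their summits were between -57 and 33 bp of the TSS. Of the 42 genes with no call, 12 had only weaker deposited peaks and 30 had no deposited peak within 1500 bp. PCDHGC5 had the most of these weaker peaks, in 5 libraries, with PCDHGC5 fold enrichments of 3.61 to 5.94. PCDHGC4 had none. In at least 1 library, 3 of the 5 C-type genes and 8 of the 48 others were called, beside 58.2% of all promoters.

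Taking the strongest called peak for each gene and library gave 34 peaks, with summits from -133 to 675 bp of the TSS. Of these, 13 were upstream, 17 in the 5′ UTR and 4 in coding sequence. Without PCDHAC1 the median was -9 bp, and 17 of 23 summits were within 100 bp of the TSS. Genes of the cluster differed in where the peak lay, with PCDHAC1 and PCDHA12 the farthest downstream among those called more than once. At the edges of the thresholds, the weakest peak kept was one of PCDHGC3 in S100A8-Flag TAM replicate 2 (−log10 q of 7.04) and the strongest one left out was a second peak of PCDHAC1 in S100A9-Flag EtOH replicate 2 (6.95). The farthest summit kept, a second and weaker peak in S100A9-Flag EtOH replicate 3, was 860 bp from PCDHAC1, and the nearest one left out was -1786 bp from PCDHGA6.

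**Figure D2:**
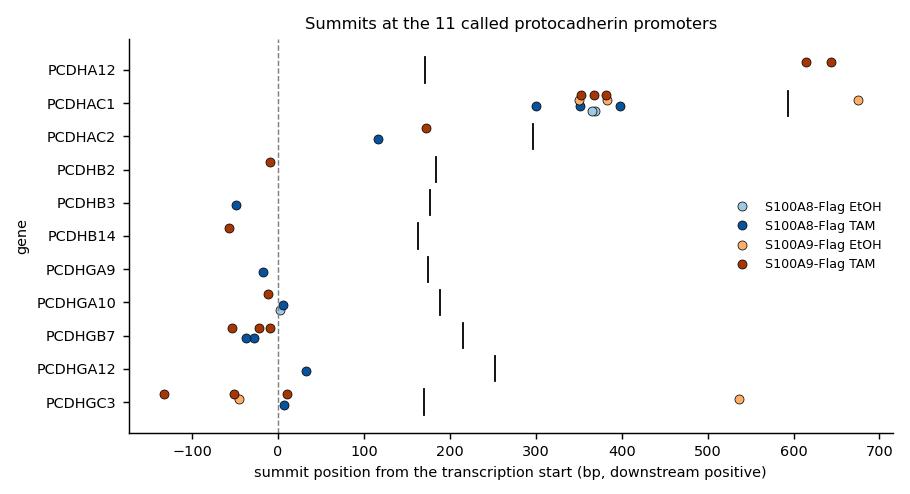
Summit position relative to the TSS (bp, downstream positive) of the strongest called peak in each library at the 11 called genes, coloured by protein and treatment, with the dashed line at the TSS and short black bars at the start of the coding sequence. These PCDHAC1 summits lie 300 to 675 bp downstream, whereas those of PCDHGB7 lie at -9 to -53 bp.

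The number of protocadherin promoters called was 2 and 1 in the S100A8-Flag EtOH libraries and 5, 3 and 3 in S100A8-Flag TAM. It was 2, 2 and 1 in S100A9-Flag EtOH and 4, 6 and 5 in S100A9-Flag TAM. The mean of the EtOH libraries was 1.60 ± 0.548 (SD, n = 5) and that of the TAM libraries 4.33 ± 1.21 (SD, n = 6), with no overlap. EtOH libraries thus called 1.89% to 3.77% of the 53 genes, against 5.63% to 11.6% of all protein-coding genes. TAM libraries called 5.66% to 11.3%, against 31.5% to 46.9%. In each library the share of protocadherins was below that of all genes. Among the 1853 top peaks of each library, the protocadherin promoters called were 1, 0, 1, 2 and 1 in EtOH and 1, 0, 1, 1, 1 and 1 in TAM, a mean difference of -0.0833 and thus in the other direction.

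Called in at least 2 replicates were 1 of 53 in S100A8-Flag EtOH (PCDHAC1, with 4.28% of all promoters called), 2 in S100A8-Flag TAM (PCDHAC1 and PCDHGB7, with 35.2%), 2 in S100A9-Flag EtOH (PCDHAC1 and PCDHGC3, with 5.41%) and 4 in S100A9-Flag TAM (PCDHAC1, PCDHA12, PCDHGB7 and PCDHGC3, with 41.1%). A larger share of TAM than of EtOH libraries called 10 of the 53 genes, and a larger share of EtOH libraries called 0, beside 55.5% and 1.19% of all promoters. A larger share of S100A9-Flag than of S100A8-Flag libraries called 5 genes and a smaller share 4, beside 25.9% and 21.1% of all promoters. By group, calls summed over libraries were 5 in EtOH and 10 in TAM for alpha genes, 0 and 3 for beta genes, and 3 and 13 for gamma genes. These EtOH and TAM sums come from 5 and 6 libraries.

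In the cluster and its flanks, the number of peaks rose with TAM. It was 5 and 8 in S100A8-Flag EtOH and 20, 16 and 13 in S100A8-Flag TAM. It was 3, 2 and 4 in S100A9-Flag EtOH and 15, 17 and 19 in S100A9-Flag TAM. The mean difference over the proteins was 11.9 peaks, by the exact permutation test with p = 0.01, the smallest it can give. Within S100A8-Flag the difference was 9.83 peaks, and the exact p of 0.2 was the smallest that 2 against 3 libraries allow. Within S100A9-Flag it was 14 peaks, and the exact p of 0.1 was the smallest that 3 against 3 allow. EtOH and TAM counts did not overlap in either protein.

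The length of the lists moved with the treatment too, from 1853 to 4609 peaks in EtOH to between 21518 and 40735 in TAM. Per 10000 peaks of its library, the cluster held 11.6 and 17.4 in S100A8-Flag EtOH and 6.81, 6.63 and 6.04 in S100A8-Flag TAM. The S100A9-Flag lists had 8.34, 10.8 and 8.70 in EtOH and 5.88, 7.09 and 4.66 in TAM. This share was lower in TAM, by a mean difference of -5.68 per 10000 (exact permutation p = 0.01, and p = 0.18 at a difference of -4.79 with q ≤ 1e-10). The window has 2.72 of every 10000 bases of the chromosomes used, and the share of peaks was above that in all 11 libraries. That base share takes no account of how many genes the window holds, and windows with similar gene content were not compared. Among the top 1853 peaks of each library by q, the cluster held 2, 3, 1, 2 and 3 in the EtOH libraries and 3, 3, 4, 3, 5 and 4 in the TAM libraries. This was a difference of 7.65 per 10000 in the other direction (exact permutation p = 0.06). The reason for the change of direction was not tested. Read numbers were not given, so the part of sequencing depth in these counts was not tested.

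S100A9-Flag minus S100A8-Flag was -1.42 cluster peaks (exact permutation p = 0.37) and -2.90 per 10000 (exact permutation p = 0.07, and p = 0.02 without S100A9-Flag TAM replicate 2). The difference between the treatment effects of the proteins was 4.56 per 10000 (exact permutation p = 0.24), and from 1.66 to 7.46 when each library was left out in turn, lowest without S100A8-Flag EtOH replicate 2. With all libraries none of these passed the threshold, which does not show that the proteins were alike. In EtOH, 3 and 7 of the cluster peaks in S100A8-Flag lay away from protocadherin TSSs, and 1, 0 and 2 in S100A9-Flag. In TAM these were 15, 12 and 10 in S100A8-Flag and 11, 10 and 14 in S100A9-Flag.

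**Figure D3:**
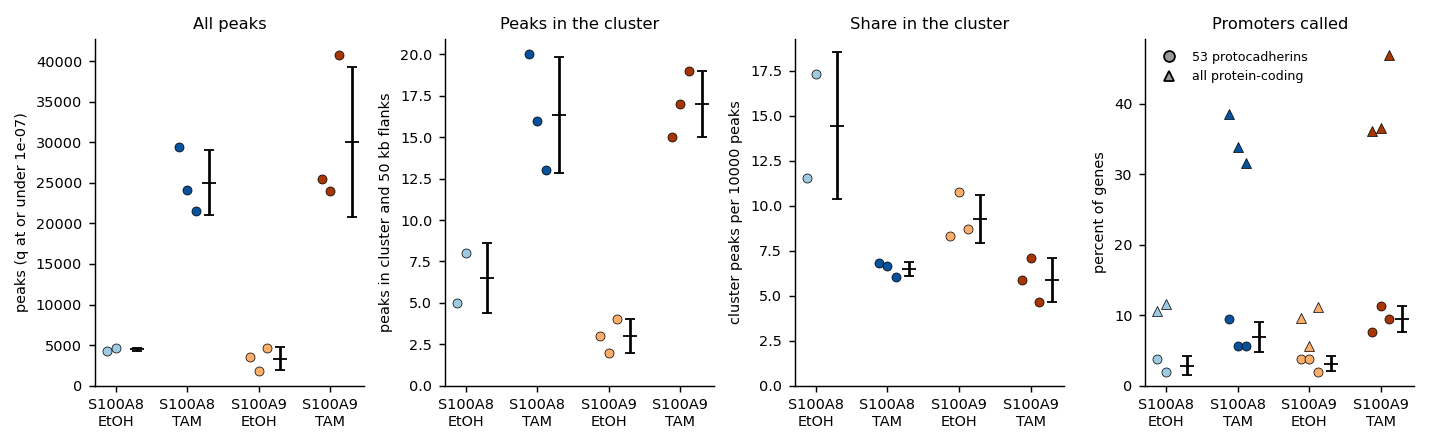
Per library, all peaks with q ≤ 1e-07, peaks in the cluster and its 50 kb flanks, cluster peaks per 10000 peaks, and the percent of genes with a called promoter for the 53 protocadherins (circles) and all protein-coding genes (triangles). Each point is a library, and bars beside the points give mean ± SD of the circles (n = 2 for S100A8-Flag EtOH, n = 3 otherwise). Cluster peaks were 2 to 8 in EtOH and 13 to 20 in TAM, and the promoter share of protocadherins was 11.3% at most.

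Peaks of at least 2 replicates of a condition formed 17 sites in the cluster and flanks, 4 of them at protocadherin promoters (PCDHA12, PCDHAC1, PCDHGB7 and PCDHGC3) and 13 elsewhere. Of the 17 sites, 4 were called in all 6 TAM libraries and in no EtOH library, beside 4.69% of 30322 such sites in the genome. No EtOH library called 9 of the 17, beside 68.9% in the genome. The 4 sites found in every TAM library but no EtOH library all lay away from protocadherin TSSs. None of the 17 was found in EtOH libraries alone, beside 28 of the 30322 in the genome.

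The first of these 4, at chr5:140381002-140381410, was in the last part of the alpha genes, in an intron upstream of their 3′ end. Its fold enrichment was 8.66, 6.40 and 6.58 in S100A8-Flag TAM and 7.18, 9.18 and 12.4 in S100A9-Flag TAM. Next came a pair between the alpha and beta genes, 27967 and 29025 bp past the end of the alpha genes, at chr5:140419677-140420056 and chr5:140420483-140421062. The former had fold enrichments of 7.52, 7.29 and 7.06 in S100A8-Flag TAM and 7.85, 10.2 and 6.74 in S100A9-Flag TAM. The latter had 10.99, 5.91 and 12.6 in S100A8-Flag TAM and 15.2, 8.59 and 7.62 in S100A9-Flag TAM. They flank the start of the lncRNA ENSG00000288892, 591 bp downstream and 467 bp upstream of it. They lie on the side of the alpha genes where the known alpha enhancer is, and no coordinates of that enhancer were used here. The fourth, at chr5:140940345-140940739, was in an intron of DIAPH1, an actin-nucleating formin, with fold enrichments from 6.74 to 13.1.

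**Figure D4:**
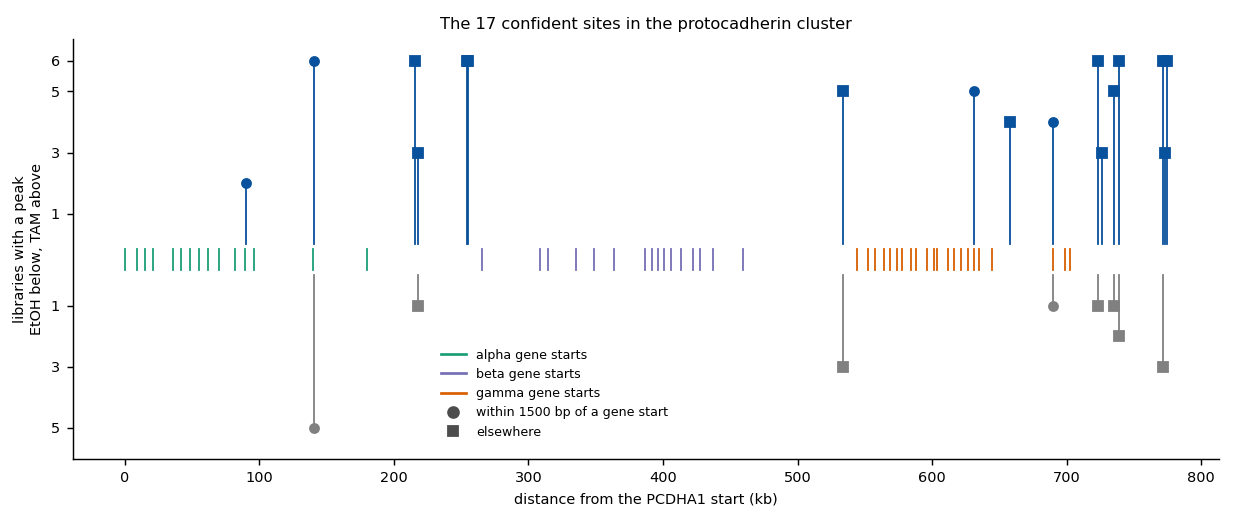
Position of the 17 sites along the cluster (kb from the PCDHA1 TSS), with the number of TAM libraries (upward, of 6) and EtOH libraries (downward, of 5) that called each, and coloured ticks for the 53 gene starts. PCDHAC1 is called in 5 EtOH and 6 TAM libraries, and no site lies among the beta gene starts.

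At the other end of the cluster, sites were found at the gamma constant exons and past them. The site at chr5:140888568-140889005 was in an intron, 3749 bp before the end of the gamma genes, and was called in 6 TAM libraries at fold enrichments of 4.08 to 16.5 and in S100A8-Flag EtOH replicate 2 at 10.1. The site at chr5:140892003-140892140 was in the shared last exon, 486 bp before its end, in 3 TAM libraries. Beyond the genes, in DIAPH1, the site at chr5:140904249-140904656 was called in 8 libraries, 6 of TAM and 2 of EtOH. The highest fold enrichment in the cluster and its flanks was at chr5:140937249-140937684, in the flank, 44802 bp past the end of the gamma genes. This site, also in DIAPH1, was called in 9 libraries and lay 532 bp upstream of the start of the lncRNA DIAPH1-AS1. Fold enrichment there was 16.1, 19.95 and 8.38 in S100A8-Flag TAM and 9.46, 29.1 and 25.7 in S100A9-Flag TAM. In EtOH it was 7.31 and 9.95 in S100A8-Flag and 6.31 in S100A9-Flag replicate 3. TAM and EtOH values overlapped in S100A8-Flag, and the 3 TAM values of S100A9-Flag were above its 1 EtOH value. The neighboring site at chr5:140939162-140939374 was called in 3 of 3 S100A8-Flag TAM libraries, at 6.61, 8.86 and 8.28, and in no S100A9-Flag library.

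Among protein-coding genes other than protocadherins, TAF7 alone had its TSS within 1500 bp of a site. TAF7, a subunit of the general transcription factor TFIID that lies between the beta and gamma genes, was called in 3 EtOH and 5 TAM libraries, at fold enrichments of 4.32 to 14.7. Its summits were 24 to 813 bp downstream of the TAF7 start. The pseudogene AC005618.1 and the lncRNA ENSG00000288095 start within 1500 bp of the same peaks, and these starts could not be told apart.

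**Figure D5:**
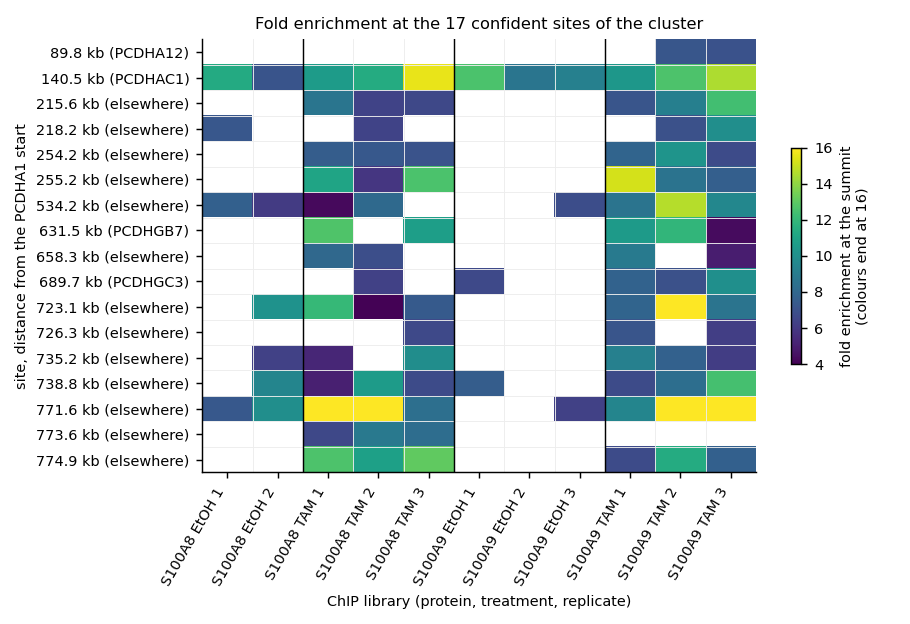
Fold enrichment at the 17 sites (rows, with the distance from the PCDHA1 TSS) in each library (columns). Empty cells had no peak with q ≤ 1e-07. In 4 rows the cells are filled in all TAM and no EtOH libraries, and the row at 771.6 kb reaches 29.1, beyond the end of the colour scale.

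Sequence around the summits was searched on both strands for the CTCF motif and for AP-1 (TGACTCA or TGAGTCA), ETS (CGGAAG) and KLF/SP1 (CCCCGCCC) motifs. Within 100 bp of the summit, the CTCF motif was in 5 of 17 sites, beside 11.1% of all 30322 sites. These were the PCDHA12 site, both sites between the alpha and beta genes, the site in the last gamma exon and the DIAPH1 site at chr5:140904249-140904656. Within 50 bp it was in 3 of 17, beside 9.30% of all sites, and of the pair between the alpha and beta genes only the second held it there. At both sites between the alpha and beta genes the match was on the minus strand, and at PCDHA12 it was on the plus strand, as capitals show in the sequences above. AP-1 was in 4 of 17 sites (25.8% of all sites), ETS in 3 (13.3%) and KLF/SP1 in 2 (10.5%).

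In the 300 bases from 250 before to 50 after the TSS, an exact match to the CTCF letters was in 1 of the 53 protocadherin promoters. It was in 3.64% of all protein-coding promoters. Absence of an exact match does not show that a promoter lacks a CTCF site. AP-1 was in 1 (3.98% of all), ETS in 6 (21.8%) and KLF/SP1 in 0 (27.7%). In these 300 bases none of the 11 called promoters held CTCF, AP-1 or KLF/SP1, and PCDHB2 held ETS. The CTCF match at the PCDHA12 site lies downstream of these bases and was not counted here. The median number of CG dinucleotides was 7 in protocadherin promoters and 18 in all promoters. It was 9 in the 11 called and 6 in the 42 others, and PCDHAC1 had 27, the highest of the 53, followed by PCDHGC3 with 19.

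Because the genes resemble each other, reads can fail to map uniquely. Of the 50-base stretches within 1500 bp of a TSS, 0% to 28.5% also occurred elsewhere in the window, with a median of 0.407% over the 53 genes. The median was 0% in the 11 called genes and 1.03% in the 42 others. The value was 0.237% at PCDHAC1, 0% at PCDHGC3 and 7.89% at PCDHGB7. The part of such stretches in the calls was not tested.

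Related genes were counted over the whole genome in the same way. Of 28 cadherins outside the clusters, 17 were called in at least 1 library, beside 58.2% of all promoters, with medians of 0 EtOH and 1 TAM libraries, beside 0 and 2 over all protein-coding genes. Those called most often were PCDH9 (4 EtOH and 6 TAM libraries), PCDH12 (3 and 6), CELSR3, a planar polarity cadherin (1 and 6), FAT1, a giant cadherin (1 and 6), and PCDH1 (2 and 5). Of 17 genes of promoter choice and looping, 16 were called, with medians of 1 EtOH and 5 TAM libraries. They included the cohesin factors PDS5B and STAG1 and the histone methyltransferase SETDB1 (3 EtOH and 6 TAM libraries each), the insulator protein CTCF (2 and 6) and the cohesin loader NIPBL (1 and 6). Of 15 partners of the protocadherin cytoplasmic domains, 14 were called, with medians of 0 EtOH and 4 TAM libraries. CYFIP1, of the WAVE actin regulatory complex (4 and 6), WASF1, of the same complex (1 and 6), PDCD10 (0 and 6), the focal adhesion kinase PTK2 (1 and 5) and the GTPase RAC1 (1 and 5) led that list. In each list 3 genes had an unadjusted exact p under 0.05 between treatments, beside 18.8% of all genes tested, and 0 passed after adjustment over 11690 genes.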

How the data were processed

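ChIP peak lists of 11 libraries were used. The authors used Bowtie2 for alignment to hg19, discarded reads without a unique position, and ran MACS2 on each library against its chromatin input. The deposited fold enrichment of a peak is the value that MACS2 gave from this comparison with input. The deposited −log10 q of a peak is from the same call and reaches down to q = 0.05. The deposited peak score was not used. Tool versions are not given in the sources used here. Read numbers are not in the lists, so depth is unknown and no interval is given. Replicates are labelled biological.

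Only peaks with q ≤ 1e-07 were kept, from chromosomes 1 to 22 and X. The TSS was the 5′ end of the gene record in GENCODE 44 lifted to GRCh37, the same assembly as hg19. Peaks of at least 2 replicates of a condition that overlapped by at least 1 bp formed sites, merged over conditions. Values per library were compared by exact permutation of libraries within protein or treatment (200 arrangements), two-sided by doubling the smaller tail. Promoter calls were tested so for each gene with Benjamini-Hochberg adjustment. Genes called in at least 2 libraries were named, up to 20, with up to 5 per list. Members and lists were chosen with earlier results of these data known. Code was checked on simulated lists. Alternatives changed the q threshold, list length, TSS, window, overlap, flank and libraries. Python 3.11.15, NumPy 2.4.6 and pandas 2.3.3 were used. Input and Pol II libraries were not analysed here.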

Additional observations from a re-analysis of the deposited data

How the results depend on the processing

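With every deposited peak, TAM minus EtOH was 4.75 promoters and S100A9 minus S100A8 1.75, promoters called in at least 2 replicates were 2, 6, 4 and 9 (S100A8-Flag EtOH and TAM, then S100A9-Flag EtOH and TAM), and the cluster held 26 sites. The difference of treatment effects between proteins then was -0.92 per 10000 (exact permutation p = 0.79), S100A9 minus S100A8 in TAM was -1.33 cluster peaks, and in EtOH 0.272 per 10000. With q ≤ 1e-10, TAM minus EtOH was 1.58 promoters, S100A9 minus S100A8 was -0.0833 overall and -0.333 in TAM, promoters called in at least 2 replicates were 0, 2, 1 and 2, and the cluster share differed by -4.79 per 10000 (exact permutation p = 0.18). With the 1853 top peaks of each library, TAM minus EtOH was -0.0833 promoters (-0.333 in S100A9-Flag) and 1.42 cluster peaks (exact permutation p = 0.06), or 7.65 per 10000 (4.50 in S100A8-Flag and 10.8 in S100A9-Flag). S100A9 minus S100A8 then was 0.0833 cluster peaks and 0.450 per 10000 (3.60 in TAM), PCDHGC3 calls differed by -0.167 in share, promoters called in at least 2 replicates were 0, 1, 1 and 1, and sites were 4. This setting keeps fewer peaks by construction.

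A window of 1500 bp upstream to 250 bp downstream left 0, 1, 0 and 2 promoters called in at least 2 replicates, and S100A9 minus S100A8 in EtOH was -0.167 promoters. A window of 500 bp left 1 in S100A9-Flag EtOH, and that difference was -0.5. Asking for every replicate left 1 promoter in S100A8-Flag TAM and 1 in S100A9-Flag EtOH, and asking for at least 1 replicate gave 2 and 8 in S100A8-Flag EtOH and TAM, 8 in S100A9-Flag TAM and 31 sites. The cause of these changes was not tested.

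Leaving out each library in turn, promoters called in at least 2 replicates ranged from 1 to 2 in S100A8-Flag TAM (1 without replicate 1 or 3) and from 1 to 2 in S100A9-Flag EtOH (1 without replicate 1 or 2). S100A9 minus S100A8 ranged from -4.35 to -1.45 per 10000, with an exact permutation p of 0.02 at -3.20 without S100A9-Flag TAM replicate 2. In TAM that difference ranged from -1 to 2.5 cluster peaks, at -1 without S100A8-Flag TAM replicate 3 and -0.333 without S100A9-Flag TAM replicate 3, and in EtOH from -0.333 to 0.667 promoters, lowest without S100A8-Flag EtOH replicate 2. The PCDHGA10 share difference ranged from -0.167 to 0.333, at -0.167 without S100A8-Flag EtOH replicate 2 and -0.0833 without S100A8-Flag TAM replicate 3 or S100A9-Flag TAM replicate 2. With single libraries left out, PCDHGB7 reached an exact permutation p of 0.06 at most. TAM minus EtOH stayed between 11 and 12.75 cluster peaks and between -7.13 and -4.23 per 10000, with p up to 0.025.

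Replicate numbers showed no sign of pairing: deviations of same-numbered libraries correlated at -0.0169 to 0.0256 over 5 pairs. With the numbers as a block, TAM minus EtOH was 12.8 cluster peaks and -5.57 per 10000, each with an exact permutation p of 0.0625, the smallest that 5 pairs allow, and 2.92 promoters. Without 1 of its 2 libraries, S100A8-Flag EtOH gives no promoter called in at least 2 replicates and no value was computed. No group is large enough for a test of single outlying libraries.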
